A study of Mus musculus with 8 samples.

Results

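The genes that surround Pglyrp1 on mouse chromosome 7 were examined in CD8+ T cells sorted from tumours of mice with and without Pglyrp1. They are a list of 60 named genes within about 15 Mb of Pglyrp1, with Pglyrp1 and Plaur left out. The list was made with earlier results of these libraries known and is not a sample of the region by position alone. All genes of that window in the deposited table number 619 besides Pglyrp1. The deposited table lists 59 of the 60 by name, out of 20029 genes in all, and 56 of those passed the filter on low values that all tested genes had to pass. Of the 59, 58 start within 15 Mb of the start of Pglyrp1 in the mm10 annotation, and Uba2 starts 15.3 Mb from it. The remaining name, Arhgap35, is listed under its older symbol Grlf1 and was not counted as a member; Grlf1 was at 1.51 to 3.47 TPM in KO and 2.36 to 3.47 TPM in WT libraries.

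The 8 libraries came from MC38-OVA tumours, grown from a mouse colon carcinoma line that carries the model antigen ovalbumin and was injected under the skin of the right flank. Knockout (KO) mice were of the strain B6.129S4-Pglyrp1tm1.1Lky/J (n = 4, libraries 1 to 4) and wild-type (WT) mice were C57BL/6J (n = 4, libraries 6 to 9), both bought from the Jackson Laboratory. The labels give no age and do not call the groups littermates, and all mice carried the tumour. Each library was made from 1000 live cells sorted for CD8, TCRβ and CD45, 1 library per mouse, so the tests measure the spread between mice.

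A gene targeted in embryonic stem cells of 1 mouse strain and then crossed into another is inherited together with the DNA on either side of it. The strain name records 129S4 as the donor of the Pglyrp1 allele and C57BL/6 (B6) as the recipient. Genes near a targeted locus can therefore differ from the control strain in sequence as well as in the targeted gene, and how far such a segment reaches depends on the crosses made. Loss of Pglyrp1, donor sequence around it and other differences between the purchased strains cannot be told apart in this design.

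Promoter sequences are shown for the 4 members of smallest limma p with groups that did not overlap for which at least 100 bases before an annotated start were free of annotated exons. They are the reference (C57BL/6J) sequence from RefSeq, build GRCm38.p6, 5′ to 3′ on the strand of the gene. Capitals mark matches, on either strand, to the GC box GGGCGG or the CCAAT box CCAAT. The ETS core CCGGAAG, the AP-1 site TGANTCA and the TATA box TATAAA were searched too and had no match in these stretches. The Prkd2 and Zbtb32 stretches run up to the start used. Those of Arhgef1 and Snrpd2 end 75 and 117 bases before it, so the bases nearer the start were not searched for these 2 genes. The starts used for Prkd2 and Arhgef1 are the first bases of the annotated genes, whereas those for Snrpd2 (base 19149838) and Zbtb32 (base 30598909, minus strand) are alternative starts inside the annotated genes. The first 2 below belong to genes with lower values in KO cells and the last 2 to genes with higher values.
Prkd2 (chr7:16842652-16842901, plus strand): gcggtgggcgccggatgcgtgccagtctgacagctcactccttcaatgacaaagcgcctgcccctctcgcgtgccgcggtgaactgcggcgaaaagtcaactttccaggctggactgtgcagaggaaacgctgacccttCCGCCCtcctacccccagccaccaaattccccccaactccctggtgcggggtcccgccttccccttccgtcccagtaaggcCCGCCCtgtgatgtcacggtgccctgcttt
Arhgef1 (chr7:24902736-24902911, plus strand): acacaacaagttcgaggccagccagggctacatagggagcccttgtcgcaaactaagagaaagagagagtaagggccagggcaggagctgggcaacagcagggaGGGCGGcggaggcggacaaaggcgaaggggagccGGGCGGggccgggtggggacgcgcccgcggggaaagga
Snrpd2 (chr7:19149588-19149721, plus strand): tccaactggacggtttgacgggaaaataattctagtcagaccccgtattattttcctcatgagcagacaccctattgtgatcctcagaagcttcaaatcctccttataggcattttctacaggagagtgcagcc
Zbtb32 (chr7:30598910-30599159, minus strand): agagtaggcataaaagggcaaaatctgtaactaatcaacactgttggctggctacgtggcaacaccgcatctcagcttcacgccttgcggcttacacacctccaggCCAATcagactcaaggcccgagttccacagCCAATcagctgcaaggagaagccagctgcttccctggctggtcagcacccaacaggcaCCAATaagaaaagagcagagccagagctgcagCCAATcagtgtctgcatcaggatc
The Zbtb32 stretch holds 4 matches to CCAAT, and 0.840% of the 32851 listed promoters hold at least as many over the same 250 bases. Prkd2 and Arhgef1 hold 2 GC boxes each, a motif found at least once in 32.7% and 20.4% of listed promoters over the same positions. The share with 2 or more GC boxes was not counted, so these shares are not comparable with that for CCAAT. The Snrpd2 stretch of 134 bases, which leaves out those nearest the start, holds no match to any of the 5. Of the 56 members tested, 50 have an entry among the listed promoters.

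The deposited scores of a library added up to 2223162 at least and 3342847 at most. Rescaled to 1000000 per library they are called TPM throughout, after the name the authors give. TPM is a level per transcript length, but whether these whole-number scores were corrected for length is not known. Levels of different genes may therefore not be comparable. Each deposited unit is worth 0.299 to 0.450 TPM, and read depth is unknown. Of 10 CD8 T cell markers 9 were in the table, all above 0 in every library, 7 with a negative fold change, and Trac was not listed. Cd8a was at 376 to 454 TPM in KO and 388 to 506 TPM in WT libraries. Cd8b1 was at 1039 to 1329 TPM in KO and 1339.7 to 1728 TPM in WT libraries, so its groups did not overlap (log2 fold change -0.38 with an SE of 0.14, limma adjusted p = 0.502), and its part in the results was not tested. Summed over 16 listed myeloid markers, KO libraries 3 and 4 were at 6096 and 9239 TPM, KO libraries 1 and 2 at 590.5 and 456 TPM, and WT libraries at 323 to 664 TPM. All 14 myeloid markers tested had a positive fold change, and 11 of the 16 were at 0 in at least 1 library, Csf1r and C1qa among them. Natural killer cell markers summed to 48.2 to 86.5 TPM in KO and 20.7 to 39.4 TPM in WT libraries (5 markers, all positive, Ncr1 and Klra8 at 0 in at least 1 library). CD4 and regulatory T cell markers summed to 31.9 to 104 TPM in KO and 10.6 to 34.6 TPM in WT libraries (5 markers, all positive). Tumour and stromal markers summed to 104.8 TPM in KO library 4 and to at most 12.3 TPM in the others. The targeted gene itself, Pglyrp1, had a value of 0 in each KO library, while WT libraries held 123 to 209.6 TPM.

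Values were higher in KO cells for some neighbours of Pglyrp1 and lower for others, and 14 members had both groups of libraries that did not overlap and an unadjusted limma p under 0.05. Zbtb32, Irgc1, Igsf23, Snrpd2, Napa and Akt2 had their lowest KO value above their highest WT value. Igflr1, Prkd2, Slc1a5, Gramd1a, Arhgef1, Ppp5c, Qpctl and Smg9 had their highest KO value below their lowest WT value. No member passed the Benjamini-Hochberg threshold of 0.05 over all 10732 genes tested with limma, where 3 genes passed (0.0280%); the smallest adjusted p among members was 0.177. At an unadjusted limma p under 0.05 there were 15 of 56 members (26.8%), beside 9.08% of all genes tested. Of these, 6 had higher and 9 lower values in KO cells (all genes 6.01% and 3.07%), and 13 were under 0.01 (all genes 2.25%). The 2 groups did not overlap for 15 members (all genes 5.02%), 6 higher in KO (all genes 2.62%) and 9 lower (all genes 2.40%). Over the 56 members 24 fold changes were positive and 32 negative, with a median of -0.04 on the log2 scale beside 0.04 over all genes tested. Sorted cells were measured in bulk, so fewer cells with a transcript and less of it per cell cannot be told apart.

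Within 15 Mb of Pglyrp1, 188 tested genes are neither members nor Plaur, and 16 of them (8.51%) had an unadjusted p under 0.05, 8 in each direction. Their groups did not overlap in 9 cases (4.79%). With genes limited to a mean level of 5 TPM or more, the share at an unadjusted p under 0.05 was 27.5% of 51 members, 5.50% of 109 others and 9.57% of all 8215 such genes. Members also had higher values, with a median level of 44.5 TPM beside 7.81 TPM for the others and 14.8 TPM for all genes tested. The members were listed when earlier results of these libraries were known, so their share is a description of that list and not of the region. Members and others together, 31 of 243 genes (12.8%) had an unadjusted p under 0.05 and 18 (7.41%) one under 0.01. For whole chromosomes the share under 0.05 was 10.4% on chromosome 7, without Pglyrp1 and Plaur, and 5.93% to 12.2% on the 19 others, 4 of which were at or above chromosome 7. The share under 0.01 was 3.33% on chromosome 7 and 0.809% to 3.65% on the others, 2 of them at or above it. On the rest of chromosome 7, outside the window and the list, 9.35% of 567 genes were under 0.05 and 1.59% under 0.01. The shares of the window and of chromosome 7 include the members.

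**Figure D1:**
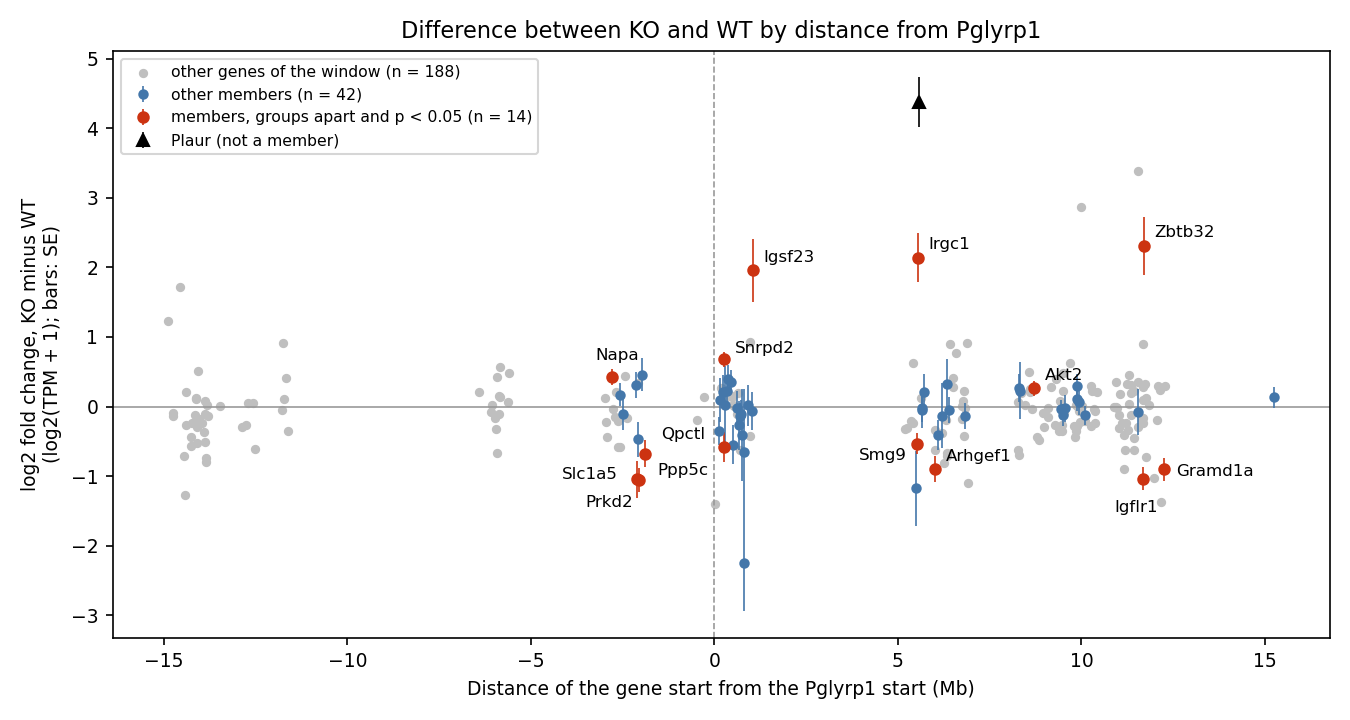
Log2 fold change (KO minus WT, log2(TPM + 1), bars are SE) against the distance of each gene's start from the start of Pglyrp1 in Mb, for members (red where the groups were apart with an unadjusted p under 0.05, blue otherwise), other window genes (grey) and Plaur (triangle). The 14 red points lie on both sides of Pglyrp1 and of 0, from -2.79 Mb (Napa) to 12.2 Mb (Gramd1a).

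Surface transporters, channels and receptors held 5 members, of which 2 had lower and 1 higher values in KO cells at an unadjusted p under 0.05. Over all genes tested 3.07% had lower and 6.01% higher values at that threshold. The same shares stand beside the counts of the groups below. These are small groups of a list chosen with results known, so their counts say nothing about a function. Slc1a5 (chromosome 7, 16781334 to 16798274) encodes ASCT2, a neutral amino acid transporter that brings glutamine into activated T cells. It was at 34.7, 50.5, 76.3 and 71.96 TPM (KO 1 to 4) against 101, 153, 131 and 90.1 TPM (WT 6 to 9). The highest KO value lay below the lowest WT value (log2 fold change -1.05 with an SE of 0.27, limma adjusted p = 0.395). Igflr1 (chromosome 7, 30565427 to 30567962), a receptor of the tumour necrosis factor receptor type for IGF-like proteins, was at 56.8, 54.1, 50.6 and 77.01 TPM (KO 1 to 4) against 107, 144, 118 and 119 TPM (WT 6 to 9). Its groups were also apart (log2 fold change -1.03 with an SE of 0.16, limma adjusted p = 0.177). In the GENCODE annotation nearly all exon bases of Igflr1 (99.8%) are shared with the model Gm49396 on the same strand, which the table does not list, so the assignment of its reads is uncertain. Igsf23 (chromosome 7, 19937305 to 19953654), an immunoglobulin superfamily gene, was at 22.5, 8.77, 7.78 and 5.47 TPM (KO 1 to 4) against 2.84, 0.450, 1.74 and 2.75 TPM (WT 6 to 9). Every KO value was above every WT value, and KO library 1 was the highest (log2 fold change 1.96 with an SE of 0.46, limma adjusted p = 0.357). Kcnn4 encodes the calcium-activated potassium channel KCa3.1, which sustains calcium entry in T cells. It was at 15.9, 62.3, 63.1 and 82.9 TPM (KO 1 to 4) against 141, 152, 144 and 46.8 TPM (WT 6 to 9). WT library 9 lay among the KO libraries, and the groups overlapped (log2 fold change -1.18 with an SE of 0.54, limma adjusted p = 0.558). Pvr (CD155), a ligand of the receptors TIGIT and DNAM-1, was at 8.46 to 17.4 TPM in KO and 8.53 to 17.1 TPM in WT libraries.

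Kinases, phosphatases and calcium signalling genes numbered 10, 8 of them tested, of which 1 had higher and 2 had lower KO values at an unadjusted p under 0.05. Prkd2 (chromosome 7, 16842902 to 16870461) encodes protein kinase D2, which is activated by diacylglycerol signals downstream of the T cell receptor. It was at 43.7, 31.7, 29.6 and 31.98 TPM (KO 1 to 4) against 85.3, 69.7, 72.9 and 60.2 TPM (WT 6 to 9). The KO values were about the same in 3 libraries and higher in KO library 1, and all were below the WT values (log2 fold change -1.06 with an SE of 0.17, limma adjusted p = 0.177). Ppp5c (chromosome 7, 17004640 to 17027914), a serine/threonine phosphatase that works with the chaperone Hsp90, was at 28.1, 40.8, 38.9 and 48.4 TPM (KO 1 to 4) against 53.2, 58.03, 76.7 and 62.1 TPM (WT 6 to 9). Its groups were apart by a narrow margin (log2 fold change -0.68 with an SE of 0.19, limma adjusted p = 0.395). Akt2 (chromosome 7, 27591552 to 27640826), a kinase of the phosphoinositide 3-kinase pathway, was at 105, 90.1, 93.3 and 90.9 TPM (KO 1 to 4) against 77.2, 77.4, 79.5 and 81.03 TPM (WT 6 to 9). The difference was small and the WT libraries were close to each other (log2 fold change 0.26 with an SE of 0.11, limma adjusted p = 0.537), and its unadjusted p stayed under 0.05 in 6 of 23 settings. Map4k1 (HPK1), a kinase that restrains T cell receptor signals, was at 65.5 to 71.1 TPM in KO and 59.7 to 81.8 TPM in WT libraries, with overlapping groups. Calm3, which encodes calmodulin, had a log2 fold change of 0.45 (SE 0.24), and Strn4, a phosphatase scaffold, one of -0.47 (SE 0.25). Gsk3a and Itpkc were under 5 TPM in every library. Dmpk and Mark4 did not pass the filter: Dmpk had a value of 0 in each WT library and at most 1.26 TPM in KO libraries, and Mark4 was at 0 to 2.08 TPM over both genotypes.

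Among 4 regulators of small GTPases and the cytoskeleton, 1 member had lower values at an unadjusted p under 0.05. Arhgef1 (chromosome 7, 24902986 to 24926594), an exchange factor that couples G12/13 proteins to RhoA in lymphocytes, was at 64.1, 55.02, 74.5 and 68.2 TPM (KO 1 to 4) against 136, 138, 136 and 86.5 TPM (WT 6 to 9). WT library 9 was lower than the other WT libraries but still above every KO library (log2 fold change -0.89 with an SE of 0.18, limma adjusted p = 0.300). Vasp, an actin polymerization factor, was at 50.2, 57.1, 49.1 and 49.7 TPM (KO 1 to 4) against 29.3, 45.4, 51.4 and 32.6 TPM (WT 6 to 9). WT library 8 lay within the KO range (log2 fold change 0.40 with an SE of 0.19, limma adjusted p = 0.570). Gmfg, an actin branch remodelling protein of blood cells, and Eml2, a microtubule-associated protein, had fold changes of -0.02 (SE 0.20) and 0.02 (SE 0.57) on the log2 scale.

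Of 4 transcription factors and repressors, Zbtb32 had higher values at an unadjusted p under 0.05. Zbtb32 (chromosome 7, 30589680 to 30602819) encodes a zinc finger repressor that is induced when lymphocytes are activated. It was at 97.4, 75.6, 149 and 63.5 TPM (KO 1 to 4) against 7.72, 28.8, 14.6 and 28.7 TPM (WT 6 to 9). The lowest KO value was above the highest WT value, and KO library 3 was the highest of all (log2 fold change 2.31 with an SE of 0.42, limma adjusted p = 0.237). Irf2bp1, a corepressor of IRF2, had groups that did not overlap at a low level, 4.16 to 5.47 TPM in KO and 5.69 to 7.47 TPM in WT libraries (log2 fold change -0.35 with an SE of 0.21, limma adjusted p = 0.635). Cic, a repressor downstream of MAP kinase signalling, and Pou2f2 (Oct2), a B cell factor, had overlapping groups.

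Splicing and RNA processing genes held 8 members, 1 higher and 1 lower at an unadjusted p under 0.05. Snrpd2 (chromosome 7, 19149445 to 19152734), 0.265 Mb from Pglyrp1, encodes SmD2 of the ring of Sm proteins in spliceosomal snRNPs. It was at 356, 363, 358 and 368 TPM (KO 1 to 4) against 209.7, 233, 250.4 and 212 TPM (WT 6 to 9). The KO values lay within a narrow range, well above the WT values (log2 fold change 0.68 with an SE of 0.11, limma adjusted p = 0.177). Smg9 (chromosome 7, 24397517 to 24422777), a subunit of the SMG1 kinase complex of nonsense-mediated decay, was at 19.8, 16.02, 18.5 and 23.1 TPM (KO 1 to 4) against 30.1, 27.9, 27.1 and 27.9 TPM (WT 6 to 9). Every WT library was above every KO library (log2 fold change -0.53 with an SE of 0.16, limma adjusted p = 0.412). The other 6 had overlapping groups. They were Snrpa (a protein of the U1 snRNP), Gemin7 of the SMN complex, Clasrp, Sympk (a scaffold of mRNA 3′ end cleavage), Hnrnpl and Hnrnpul1, and their fold changes ran from -0.27 (Gemin7, SE 0.36) to 0.27 (Snrpa, SE 0.20).

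**Figure D2:**
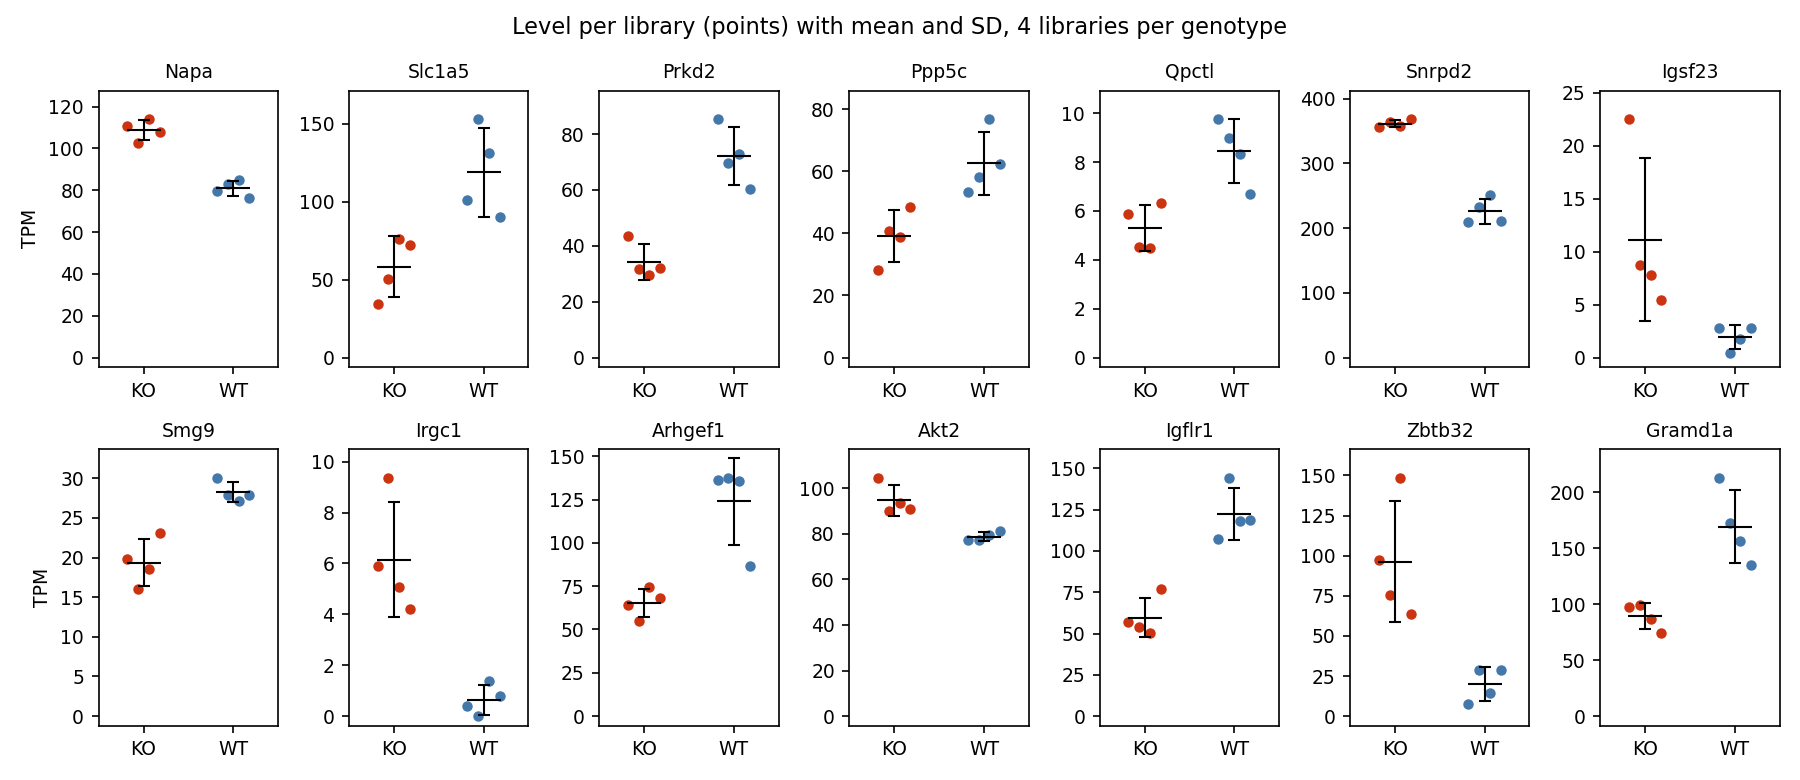
TPM in each library (points; KO libraries 1 to 4 and WT libraries 6 to 9, left to right within a genotype) with mean and SD, n = 4 per genotype, for the 14 members whose groups did not overlap at an unadjusted limma p under 0.05, in order along the chromosome. The KO and WT points do not overlap in any panel, which is a condition for being drawn, and Napa, Akt2 and Snrpd2 have the narrowest spread relative to their level.

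Membrane trafficking genes held 6 members, 5 of them tested, with 1 higher at an unadjusted p under 0.05. Napa (chromosome 7, 16098202 to 16117982) encodes α-SNAP, which recycles SNARE complexes after vesicle fusion. It was at 111, 102, 114 and 108 TPM (KO 1 to 4) against 79.7, 82.8, 84.7 and 76.3 TPM (WT 6 to 9). The groups were apart with little spread in either (log2 fold change 0.42 with an SE of 0.11, limma adjusted p = 0.395). Ap2s1 of the clathrin adaptor AP-2, Rabac1, Trappc6a and Clptm1 had overlapping groups, with fold changes from -0.41 (Rabac1, SE 0.22, positive in 1 alternative) to 0.31 (Ap2s1, SE 0.19). Ehd2, an ATPase of caveolae, did not pass the filter and was at 0 to 2.95 TPM over both genotypes.

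Among 6 mitochondrial, lipid and metabolic genes, 3 had lower values at an unadjusted p under 0.05, beside 3.07% of all genes tested. Gramd1a (chromosome 7, 31130127 to 31155935), which carries cholesterol from the plasma membrane to the endoplasmic reticulum, was at 97.7, 99.2, 86.5 and 74.1 TPM (KO 1 to 4) against 213, 173, 156 and 135 TPM (WT 6 to 9). The highest KO value was below the lowest WT value (log2 fold change -0.90 with an SE of 0.17, limma adjusted p = 0.274). Qpctl (chromosome 7, 19140217 to 19149196), the Golgi glutaminyl cyclase that modifies CD47, was at 5.89, 4.53, 4.49 and 6.31 TPM (KO 1 to 4) against 9.75, 8.996, 8.33 and 6.69 TPM (WT 6 to 9). Its groups were separated by a small gap (log2 fold change -0.58 with an SE of 0.21, limma adjusted p = 0.497), and its unadjusted p stayed under 0.05 in 16 of 23 settings. Apoe, the lipid carrier protein abundant in macrophages, was at 0.693, 1.21, 0.897 and 4.21 TPM (KO 1 to 4) against 7.32, 8.996, 3.47 and 49.6 TPM (WT 6 to 9). WT library 9 was far above the rest and the groups overlapped (log2 fold change -2.25 with an SE of 0.69, limma adjusted p = 0.439). The myeloid marker sum was largest in KO libraries 3 and 4, where Apoe was at 0.897 and 4.21 TPM. With the mean of the myeloid markers as a covariate the Apoe log2 fold change was -3.13, and without KO libraries 3 and 4 it was -2.60. The cause of the Apoe difference was not tested. Tomm40, the channel of the mitochondrial outer membrane translocase, was at 2.43, 48.4, 58.3 and 87.1 TPM (KO 1 to 4) against 71.9, 57.1, 49.7 and 23.99 TPM (WT 6 to 9). KO library 1 stood far below the other 3 KO libraries (log2 fold change -0.65 with an SE of 0.90, limma adjusted p = 0.854). Opa3 and Ethe1 had fold changes of 0.22 (SE 0.18) and 0.21 (SE 0.25).

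NF-kB genes, DNA repair genes, elongation factors and the SUMO activating enzyme had no member at an unadjusted p under 0.05, among 4, 3, 4 and 2 tested. Relb, the NF-kB subunit of the alternative pathway, was at 36.4, 50.5, 74.8 and 59.3 TPM (KO 1 to 4) against 65.03, 50.4, 59.4 and 57.8 TPM (WT 6 to 9). The KO libraries spanned the whole WT range (log2 fold change -0.11 with an SE of 0.21, limma adjusted p = 0.903). Nfkbib, which encodes IκBβ, had a fold change of 0.11 (SE 0.17), and the nuclear IκB proteins Bcl3 and Nfkbid ones of 0.02 (SE 0.29) and -0.07 (SE 0.33). Ercc1, which cuts damaged DNA with its partner XPF, had 48.5 ± 6.77 TPM in KO and 38.1 ± 6.85 TPM in WT cells (SD, n = 4), and Ercc2, the XPD helicase of TFIIH, had 9.52 ± 3.68 TPM in KO and 13.97 ± 3.38 TPM in WT cells, both with overlapping groups. Of the exon bases of Ercc2, 17.8% are shared with Klc3 on the opposite strand. Xrcc1, the scaffold of single-strand break repair, had a fold change of -0.02 (SE 0.20). Supt5, Paf1 and Zc3h4, which act on RNA polymerase II during elongation and termination, had fold changes from -0.13 to -0.04, and Sirt2, a deacetylase, one of 0.30 (SE 0.17). Sae1 and Uba2, the subunits of the SUMO activating enzyme, had 0.17 (SE 0.16) and 0.13 (SE 0.15). The signs for Relb, Nfkbib, Sae1 and Uba2 each turned in at least 1 alternative.

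The remaining group of 3 held Irgc1, Irgq and Fbxo46. Irgc1 (chromosome 7, 24431919 to 24445682) belongs to the immunity-related GTPases and is known in mice for expression in testis. It was at 5.89, 9.37, 5.09 and 4.21 TPM (KO 1 to 4) against 0.406, 0, 1.39 and 0.787 TPM (WT 6 to 9). All KO values were above all WT values, but the WT values correspond to at most 4 units of the deposited score (log2 fold change 2.14 with an SE of 0.35, limma adjusted p = 0.177), and the fold change is understated by the pseudocount of 1. Irgc1 passed the filter through its KO libraries, as WT library 8 alone of the WT libraries reached 1 TPM. Its p therefore rests on a gene admitted by the group where it is high and is no independent support. With a filter at 5 TPM Irgc1 was not tested. Fbxo46, an F-box protein, had a fold change of 0.21 (SE 0.25), and Irgq, a GTPase-like autophagy factor, one of -0.05 (SE 0.27).

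The 14 members with groups apart form 26 distinct pairs with the nearest tested gene on either side. Not all of these are close: the gap was 4128 kb from Igsf23 to Zfp180 and 1395 kb from Ppp5c to Psg28. The median gap was 11.6 kb over the 28 neighbours, counted member by member. Fold changes had the same sign in 12 pairs and opposite signs in 14 (53.8%). Over 10709 pairs of tested genes taken in order through the whole table, 47.1% had opposite signs. Those pairs include some between genes without a matched position, which are not true neighbours. In 4 pairs both genes had an unadjusted p under 0.05, 2 with the same sign (Irgc1 with Plaur, Gramd1a with Fxyd7) and 2 with opposite signs (Snrpd2 with Qpctl, Smg9 with Irgc1). Irgc1, which is in a pair of each kind, passed the filter on low values through its KO libraries. Snrpd2 and Qpctl lie 0.249 kb apart on opposite strands, with Snrpd2 higher (0.68) and Qpctl lower (-0.58) in KO cells. Igflr1 and Zbtb32 lie on either side of Wbp7, which had a fold change of -0.16 (SE 0.22), with Igflr1 lower (-1.03) and Zbtb32 higher (2.31). Prkd2 lies 1.97 kb from Strn4 (-0.47) and 44.9 kb from Calm3 (0.45). In the stretch from Kcnn4 to Plaur the fold changes were -1.18 for Kcnn4, -0.53 for Smg9, 2.14 for Irgc1 and 4.37 for Plaur, in that order along the chromosome. Plaur, which starts 15.3 kb beyond Irgc1, was at 99.5, 54.7, 86.8 and 82.1 TPM (KO 1 to 4) against 2.44, 3.60, 1.04 and 5.90 TPM (WT 6 to 9) and rose in KO cells (log2 fold change 4.37 with an SE of 0.36, limma adjusted p = 0.00234). Beyond it, Irgq, Xrcc1 and Ethe1 had fold changes of -0.05, -0.02 and 0.21. Exon bases are shared with another gene by 21 members, for 12 of them with a gene that the table lists and for 6 of those over at least 10% of the member's exon bases. The library method, as labelled, does not state that strand was kept, so reads of such pairs cannot be told apart. Among the 14, Qpctl shares 10.9% of its exon bases with Fbxo46 and Gramd1a 0.0573% with Gm10640, which the table lists. With genes that it does not list, besides Igflr1, Gramd1a shares 8.02% (G630030J09Rik) and Irgc1 7.85% (Gm36159), both on the opposite strand.

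**Figure D3:**
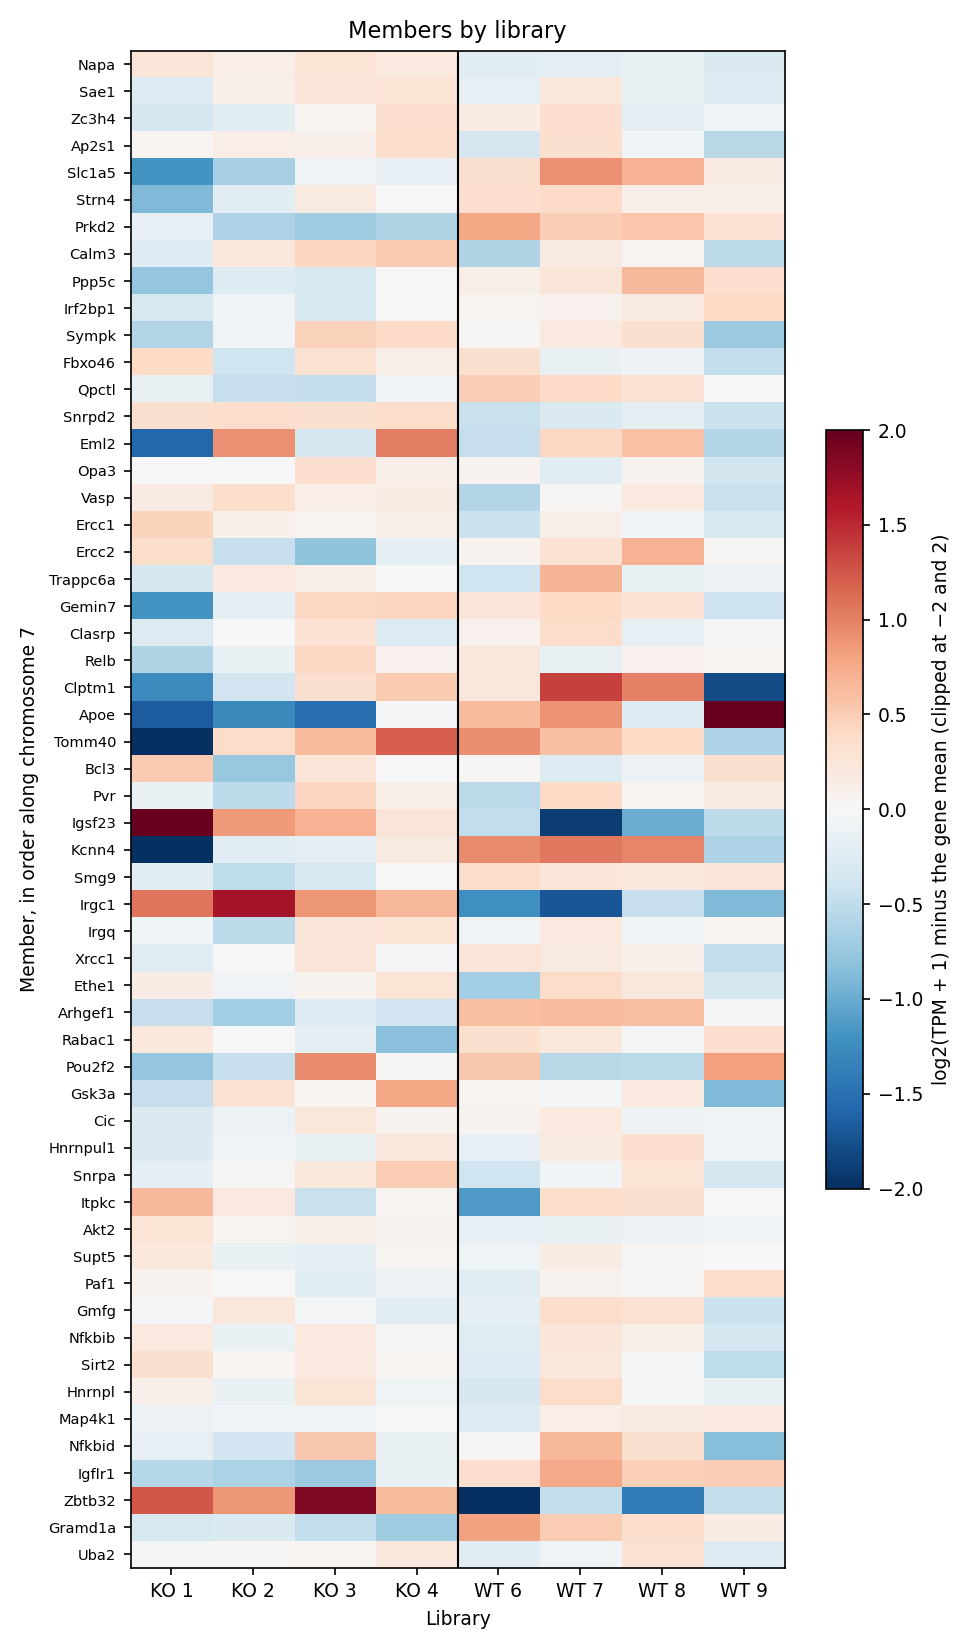
Log2(TPM + 1) minus the gene's mean over the 8 libraries (colour, clipped at -2 and 2) for the 56 members tested, in order along chromosome 7 from top to bottom, by library. Prkd2, Snrpd2 and Gramd1a are among the rows that change colour at the line between KO and WT libraries, and Tomm40 and Kcnn4 are lowest in KO library 1.

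Members differed widely in how much they varied between libraries of 1 genotype. The median within-group SD was 0.28 on the log2 scale for members and 0.37 for all genes tested. With a mean level of 5 TPM or more it was 0.275 and 0.325. Members still had the higher median level there (49.9 TPM beside 23.3 TPM), so the gap is not a trait of the members apart from level. Among members the SD was smallest for Napa (0.0652), Akt2 (0.0737) and Snrpd2 (0.0870) and largest for Tomm40 (1.58), Apoe (1.18) and Clptm1 (1.15). Several of the variable members were low in both KO library 1 and WT library 9. Clptm1 was at 3.81 TPM in KO library 1 and 2.36 TPM in WT library 9, and at 7.86 to 28.8 TPM elsewhere. Eml2 was at 2.08 and 5.11 TPM in those 2 libraries and at 5.69 to 17.7 TPM elsewhere. Erythroid and platelet markers summed to 1240 TPM in KO library 1, 969 TPM in KO library 4 and 467 TPM in WT library 9, and to 3.25 to 44.5 TPM in the others (5 markers listed, Ppbp and Gp9 at 0 in all); their part in these values was not tested. By level, 8 members had a mean of at least 100 TPM, led by Rabac1, Snrpd2, Gmfg and Ap2s1, and 8 had a mean under 5 TPM.

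Lists of genes that work with the members but lie elsewhere in the genome held 5 of 70 tested genes (7.14%) at an unadjusted p under 0.05, near the 9.08% of all genes. The 6 other Sm protein genes had 0 members at an unadjusted p under 0.05 with limma and a median fold change of 0.05. Snrpe came closest, with 735 ± 103 TPM in KO and 593 ± 42.99 TPM in WT cells (SD over 4 mice; log2 fold change 0.30 with an SE of 0.14, limma adjusted p = 0.553), against a fold change of 0.68 for Snrpd2. Among 7 listed genes around Prkd2 and Map4k1 in T cell receptor signalling, 2 had lower values at an unadjusted p under 0.05, Lat and Hdac7. Lat, the adaptor phosphorylated after receptor engagement, had 435 ± 98.2 TPM in KO and 613 ± 37.7 TPM in WT cells (log2 fold change -0.52 with an SE of 0.17, limma adjusted p = 0.472), and Hdac7, a deacetylase that protein kinase D phosphorylates, had 22.6 ± 1.72 TPM in KO and 32.5 ± 8.62 TPM in WT cells (log2 fold change -0.47 with an SE of 0.21, limma adjusted p = 0.541). Of 6 tested genes of the G12/13 and RhoA pathway around Arhgef1, Rhoa alone was under 0.05, with higher values in KO cells (344 ± 34.98 TPM in KO and 269 ± 38.2 TPM in WT cells; log2 fold change 0.36 with an SE of 0.14, limma adjusted p = 0.515). In the lists around the other members, 0 of 11 NF-kB genes, 0 of 11 SUMO genes, 0 of 6 elongation factors and 0 of 4 AP-2 subunits were under 0.05. Tomm5 of 6 outer membrane translocase genes was higher (187 ± 5.15 TPM in KO and 149.8 ± 23.8 TPM in WT cells) and Xpc of 13 repair genes lower (8.87 ± 1.73 TPM in KO and 14.8 ± 3.97 TPM in WT cells). No gene of these lists passed over all genes tested.

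Among the other window genes whose mean level was 5 TPM or more, 6 were named by the smallest unadjusted p. Tyrobp, an adaptor of myeloid and natural killer cells 11.5 Mb from Pglyrp1, was at 83.2, 84.9, 1279.8 and 1291 TPM (KO 1 to 4) against 40.6, 32.4, 23.3 and 28.3 TPM (WT 6 to 9). It is on the myeloid marker list and is part of that list's sum, and both were far higher in KO libraries 3 and 4. In KO libraries 1 and 2 the sum lay within the WT range, while Tyrobp was above every WT library. Its groups therefore did not overlap (log2 fold change 3.39 with an SE of 0.92, limma adjusted p = 0.395), and the cause was not tested. Ccdc61, whose nearer end lies 0.445 kb beyond Pglyrp1, was at 1.04, 3.63, 3.29 and 4.21 TPM (KO 1 to 4) against 9.35, 13.04, 19.8 and 2.36 TPM (WT 6 to 9). WT library 9 lay within the KO range (log2 fold change -1.40 with an SE of 0.55, limma adjusted p = 0.508). Pafah1b3 (0.90), Zfp36 (0.49) and Psmc4 (0.28) had positive and Ppp6r1 (-0.56) a negative log2 fold change, with limma adjusted p from 0.498 to 0.533. By distance, the other window genes at an unadjusted p under 0.05 numbered 4 of 38 at 10 to 15 Mb on the side of lower coordinates, 0 of 13 at 5 to 10 Mb and 1 of 14 within 5 Mb. On the side of higher coordinates they numbered 1 of 12 within 5 Mb, 5 of 61 at 5 to 10 Mb and 5 of 50 at 10 to 15 Mb. Members numbered 4 of 9 within 5 Mb on the lower side, and 4 of 20, 4 of 21 and 3 of 5 in the same 3 steps on the higher side. The share over all genes tested was 9.08%, and the members were listed with earlier results known.

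Over 22 alternatives, 13 to 18 members had an unadjusted p under 0.05, while the share of all genes tested ran from 3.95% to 12.4%. With the mean of the myeloid markers as a covariate there were 15 members (26.8%) beside 3.95% of all genes, and 12 of the 14 members with groups apart stayed under 0.05. Without KO libraries 3 and 4, which hold most of the myeloid signal, there were 16 of 56 members (28.6%) beside 4.22% of all genes, again with 12 of the 14. Qpctl and Akt2 were the 2 that did not stay under 0.05 in either setting. Since the list was chosen with results of these 8 libraries known, these counts describe the list and are no sign of stability.

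**Figure D4:**
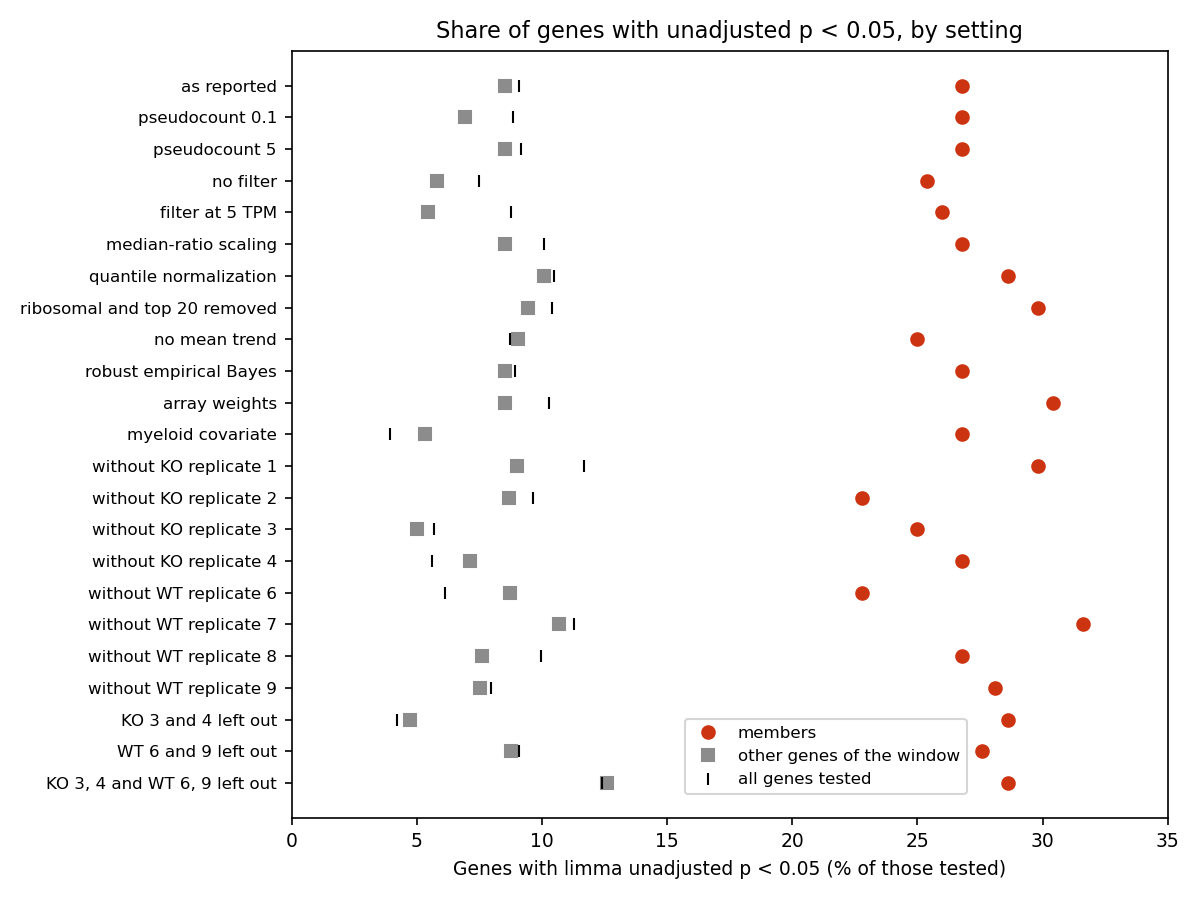
Share of genes at an unadjusted limma p under 0.05, in percent of those tested, for members (red), other genes of the window (grey squares) and all genes tested (black ticks), as reported and under each of 22 alternatives. Members range from 22.8% to 31.6%, the other window genes from 4.72% to 12.6%.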

How the data were processed

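The deposited table holds a score per gene and library that the authors name a TPM-normalized count, as whole numbers. Per the submitters' processing notes the tool was RSEM 1.3.3 and the build mm10. An aligner, annotation or scaling step is not given in the sources used here; depth is unknown, so there are no counting intervals. Scores were divided by their library sum and multiplied by 1000000 (TPM), to suit the planned fit. Genes reaching 1 TPM in 4 or more libraries (the smaller group's size where libraries are left out) were tested on log2(TPM + 1) with limma 3.58.1 in R 4.3.3 (mean trend, genotype only, Benjamini-Hochberg over 10732 genes); fold changes on this scale are understated for low genes. For named genes the exact permutation p (two-sided) was taken over the 70 ways to assign 8 libraries and cannot fall below 0.0286, the value of all 14 members with groups apart. The limma fit was also run on simulated data, drawn as independent normal values around each gene's mean. Such data hold no variation shared between genes and no floor at 0, so that run lends no support to the results here. Positions are RefSeq GRCm38.p6 (mm10), 1-based, with distances between lowest coordinates, for 18495 symbols and 1410 older ones (20 more from GENCODE); 104 were not matched. Exon overlaps and strands are from GENCODE M21.

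The members, roles and partner lists were chosen with earlier results of these data known. Members are named where their groups did not overlap at an unadjusted p under 0.05, and otherwise as the 2 of smallest p in each role; window genes as the 6 of smallest p with a mean of at least 5 TPM; partner lists by up to 2 genes. Other members named for their function, and the marker genes, Wbp7 and Fxyd7, were chosen after their values were seen.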

Additional observations from a re-analysis of the deposited data

Results flagged for a closer look

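In 66 groups of 4 libraries, 5 held 1 library far from the other 3 relative to the group's range, where chance marks about 1 in 20 groups, or 3.3. Prkd2 was at 43.7 TPM in KO library 1 and at 29.6 to 32.0 TPM in the other KO libraries. Vasp was at 57.1 TPM in KO library 2 and at 49.1 to 50.2 TPM in the others. Apoe was at 4.21 TPM in KO library 4 (others 0.693 to 1.21 TPM) and at 49.6 TPM in WT library 9 (others 3.47 to 8.996 TPM). Arhgef1 was at 86.5 TPM in WT library 9 and at 136 to 138 TPM in the other WT libraries.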

How the results depend on the processing

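No paired analysis was possible because no replicate number occurs in both genotypes (1 to 4 in KO, 6 to 9 in WT). The number of members past the adjusted threshold was 0 in all 22 alternatives, with a smallest adjusted p of 0.0543 (Igflr1, after removal of ribosomal protein genes and the 20 highest genes). With 1 library left out, 13 to 18 members were under an unadjusted p of 0.05, 15 to 19 had groups that did not overlap, and 25 to 40 window genes were under 0.05. Window genes under 0.05 numbered 32, Plaur included, and 20 with a filter at 5 TPM, where fewer genes are tested. Members with groups apart numbered 32 when KO libraries 3 and 4 and WT libraries 6 and 9 were left out, where 43.3% of all genes had groups apart with 2 libraries each. Of 592 recomputed fold changes of named members, 581 kept their sign and 11 turned, all of them small and the cause not tested. Sae1 was at -0.027 with the myeloid covariate, -0.00015 without KO libraries 3 and 4 and -0.12 without both pairs. Relb ran from -0.27 to 0.068 with 1 library left out, positive without KO replicate 1, and Rabac1 at 0.019 without both pairs. Nfkbib was at -0.020 with abundant genes removed, -0.12 with WT 6 and 9 left out and -0.15 with both pairs left out. Uba2 was at -0.0016, -0.044 and -0.11 in the same 3 settings.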
